A study of Homo sapiens with 6 samples.

Results

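Transcripts of the 10 enzymes and cofactors that write, copy and remove DNA methylation were followed in AF22, a human neural stem cell line. The members were found by symbol, and all 10 are among the 26485 gene symbols of the count files. They are the methyltransferase genes DNMT1, DNMT3A and DNMT3B, the cofactor genes UHRF1, HELLS and CDCA7, the dioxygenase genes TET1, TET2 and TET3, and the glycosylase gene TDG. RNA was sequenced from 2 groups of 3 libraries each, a BMI1/COMMD3-BMI1 knockdown and a control labelled shControl with a WT genotype. BMI1 encodes a Polycomb protein of the PRC1 complex, which modifies histone H2A and represses transcription. COMMD3-BMI1 names transcripts that read through from the neighbouring gene COMMD3 into BMI1. The hairpin sequences and the time after knockdown were not used here. Both groups carry the library numbers 1 to 3, and nothing says whether these were separate cultures, so p-values cover only differences among these libraries, and those may be technical.

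In mammalian cells DNMT1 copies the methylation pattern of the parental strand onto the new strand behind the replication fork. UHRF1 recognises the half-methylated sites and brings DNMT1 to them, while the chromatin remodeller HELLS and its zinc finger partner CDCA7 open nucleosomes for the process. These 4 are called replication-coupled below. DNMT3A and DNMT3B set methylation on unmethylated DNA, which is called de novo methylation. TET1, TET2 and TET3 oxidise 5-methylcytosine, and TDG cuts out the oxidised bases so that repair can restore cytosine. In neural stem cells DNMT1 is known for keeping glial genes silent during the neurogenic period, and DNMT3A for methylating sites outside promoters.

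The 10 genes lie on 6 chromosomes of GRCh38 (GENCODE 29 coordinates). DNMT1 is at 10133345 to 10231286 on the minus strand of chromosome 19, and UHRF1 at 4903080 to 4962154 on its plus strand. Chromosome 10 carries HELLS at 94501434 to 94613905 and TET1 at 68560656 to 68694482, both on the plus strand. Chromosome 2 carries DNMT3A at 25227855 to 25342590 on the minus strand, and TET3 at 73986404 to 74108176 and CDCA7 at 173354820 to 173368997 on the plus strand. DNMT3B is at 32762385 to 32809356 on chromosome 20, TET2 at 105145875 to 105279816 on chromosome 4 and TDG at 103965804 to 103988874 on chromosome 12, each on the plus strand. The exons of DNMT1 share 83 bases with those of S1PR2, the only exon overlap between a member and another symbol of the files. TET1 and TDG each have 1 annotated pseudogene, so some reads of those 2 genes could have been placed elsewhere.

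The replication-coupled genes also share letters in their promoters that the choice of members did not use, and the promoters are shown for that reason. E2F transcription factors, which drive genes of S phase entry, bind sites written TTTCCCGC, TTTCGCGC, TTTGCCGC or TTTGGCGC. These 4 forms were searched on both strands in RefSeq promoter windows (GRCh38.p14; 250 bases before to 50 after each annotated start), a search chosen after the member promoters had been read. Each of the 4 replication-coupled genes had at least 1 match in at least 1 window, and none of the 15 windows of the other 6 genes had one. Of all 35116 windows 3.31% held a match, and of all 27305 genes with a window 3.99% did. The 130 bases from 100 before to 30 after the start are printed 5′ to 3′ on the strand of the gene, with the matching letters in capitals. For UHRF1 the first of its 3 annotated starts is shown. DNMT3B and TDG, with 1 RefSeq window each and no match in it, follow for comparison.
DNMT1: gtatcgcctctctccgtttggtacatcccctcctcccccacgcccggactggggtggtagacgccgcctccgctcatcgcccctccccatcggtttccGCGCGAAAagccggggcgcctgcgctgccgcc
UHRF1: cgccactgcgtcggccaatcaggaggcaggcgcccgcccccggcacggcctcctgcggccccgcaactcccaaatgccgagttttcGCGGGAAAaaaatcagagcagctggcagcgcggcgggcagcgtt
HELLS: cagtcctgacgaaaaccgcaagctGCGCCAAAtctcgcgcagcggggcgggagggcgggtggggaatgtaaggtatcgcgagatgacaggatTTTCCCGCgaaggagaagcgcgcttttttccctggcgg
CDCA7: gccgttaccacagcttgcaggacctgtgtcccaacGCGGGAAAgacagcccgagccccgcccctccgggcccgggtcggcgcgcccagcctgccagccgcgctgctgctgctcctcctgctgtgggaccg
DNMT3B: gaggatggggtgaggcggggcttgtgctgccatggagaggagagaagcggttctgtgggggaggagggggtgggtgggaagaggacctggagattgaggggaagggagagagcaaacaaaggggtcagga
TDG: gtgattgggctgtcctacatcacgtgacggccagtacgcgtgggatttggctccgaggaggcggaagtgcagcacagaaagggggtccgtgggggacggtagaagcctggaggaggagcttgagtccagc
The windows are chr19:10194924-10195053 (minus strand) for DNMT1, chr19:4909401-4909530 for UHRF1, chr10:94545688-94545817 for HELLS, chr2:173354772-173354901 for CDCA7, chr20:32779752-32779881 for DNMT3B and chr12:103965772-103965901 for TDG, on the plus strand apart from DNMT1.

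The DNMT1 match ran from position -2 to 6, where 1 is the first base at the annotated start. UHRF1 had a match at -14 to -7, and a further one at -160 to -153 from its second start. HELLS had 2, at -76 to -69 and -8 to -1, and CDCA7 had 1 at -65 to -58. A match describes letters only: whether E2F factors bind there in AF22 cells was not measured. A window without a match says nothing about other sites of the same gene. For several members the nearest window lies inside the GENCODE gene, so the 5′ end of the gene was not searched. The start with a window is 17467 bases downstream of that end for DNMT3B, 6421 for UHRF1, 36333 for DNMT1 and 44354 for HELLS. On the same scale it is at -319 for TET1 and -1494 for TET3, upstream of the GENCODE gene. The bases after the start lay in an annotated transcript in none of the 3 TET1 and 2 TET3 windows and in 4 of 6 DNMT3A windows. They did so in all windows of the 4 replication-coupled genes, so the windows compared are not alike.

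**Figure D1:**
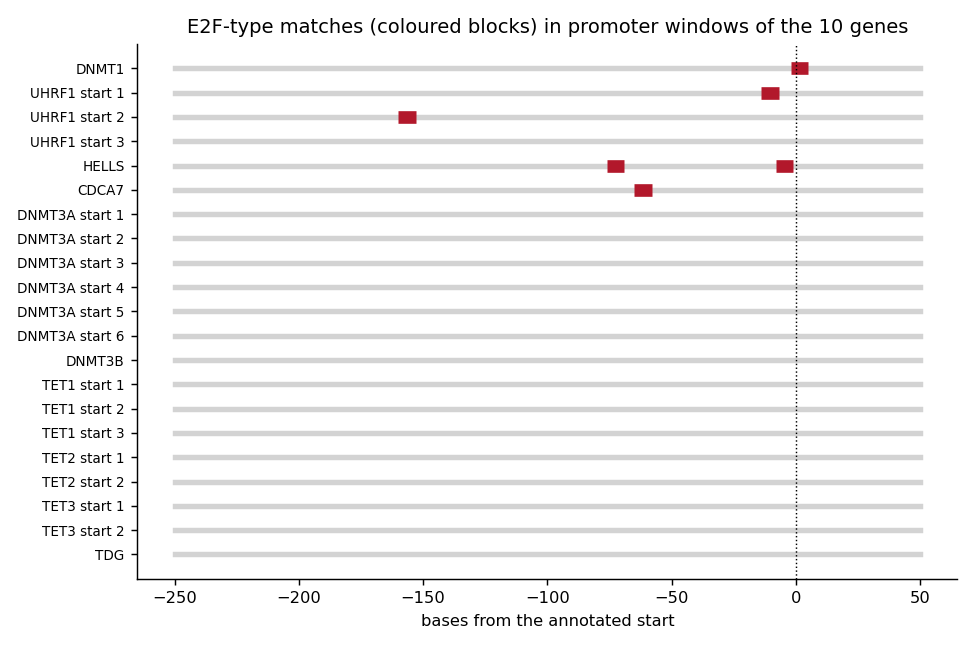
Positions of the E2F-type matches (coloured blocks) in the 300-base promoter windows (grey lines, 1 per annotated start) of the 10 genes; the x axis is the distance in bases from the annotated start. Blocks are seen for DNMT1, UHRF1, HELLS and CDCA7 and for no window of the other 6 genes.

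The knockdown was checked at its target first. BMI1 stood at 39.9, 21.5 and 26.2 CPM (read counts scaled by library size with TMM factors) in knockdown libraries 1, 2 and 3, against 85.1, 90.0 and 87.4 CPM in shControl libraries 1, 2 and 3. The paired edgeR fit, in which a knockdown library is compared with the shControl library of the same number, gave a log2 fold change of -1.64 (SE 0.155, adjusted p 0.00836, n = 3 pairs). COMMD3 was at 32.5 ± 0.873 CPM in knockdown and 26.3 ± 2.06 CPM in shControl libraries (mean ± SD, n = 3 each; edgeR adjusted p 0.0804), and COMMD3-BMI1 was listed at 0 counts in all 6 libraries. Total counts ran from 4962745 to 9640349 per library. On the first principal component knockdown library 2 lay at 40.2, where the others lay between -25.5 and 11.5.

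The replication-coupled genes fell together in knockdown cells, to between 65.3% (HELLS) and 72.1% (DNMT1) of the shControl mean, and none of the de novo and removal genes passed the test in either direction. In the paired edgeR fit 4 of the 10 members were called at an adjusted p of 0.05, all of them lower. Of the 12937 genes tested 10% were called, 5.39% lower and 4.63% higher. The call depends on the pairing: edgeR without the block on library number called 0% of all genes and none of the members. In that fit 5 of the 10 members had an unadjusted p under 0.05 (DNMT1, UHRF1, CDCA7, DNMT3A and TET3), against 14.4% of all genes. In bulk RNA, fewer cycling cells and less RNA per cell cannot be told apart.

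DNMT1, the maintenance methyltransferase, had 1294, 1293 and 1960 counts in the knockdown libraries and 1770, 1933 and 1903 in the shControl libraries. Scaled, these are 267.6, 174.8 and 205.3 CPM in knockdown against 325.2, 298.8 and 274.6 CPM in shControl cells. Every knockdown value lies below every shControl value, although knockdown library 1 is close to shControl library 3. The log2 fold change was -0.49 (SE 0.0922; edgeR adjusted p 0.0256 in the paired fit and 0.267 without the block). UHRF1, the reader of half-methylated sites, was at 184.9, 117.2 and 132.8 CPM in knockdown and 217.7, 217.8 and 184.5 CPM in shControl libraries. Knockdown library 1 just overlapped with shControl library 3, and the other 2 knockdown libraries were far below all controls. Its log2 fold change was -0.54 (SE 0.110, edgeR adjusted p 0.028, and 0.265 without the block).

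HELLS, the remodeller, had the lowest counts of the 4, with 332, 211 and 382 in knockdown and 453, 442 and 405 in shControl libraries. In CPM it stood at 68.7, 28.5 and 40.02 in knockdown against 83.2, 68.3 and 58.4 in shControl cells. The groups overlapped through knockdown library 1, which lay above shControl libraries 2 and 3. HELLS fell by 0.68 on the log2 scale (SE 0.157, edgeR adjusted p 0.0361), and the p was 0.356 without the block. With pair 2 left out the log2 fold change of HELLS was -0.42, as was that of CDCA7. CDCA7, its partner, was at 92.0, 48.9 and 62.7 CPM in knockdown and 109.0, 98.3 and 92.8 CPM in shControl libraries, without overlap. It fell by 0.60 on the log2 scale (SE 0.124, edgeR adjusted p 0.028, and 0.282 without the block).

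**Figure D2:**
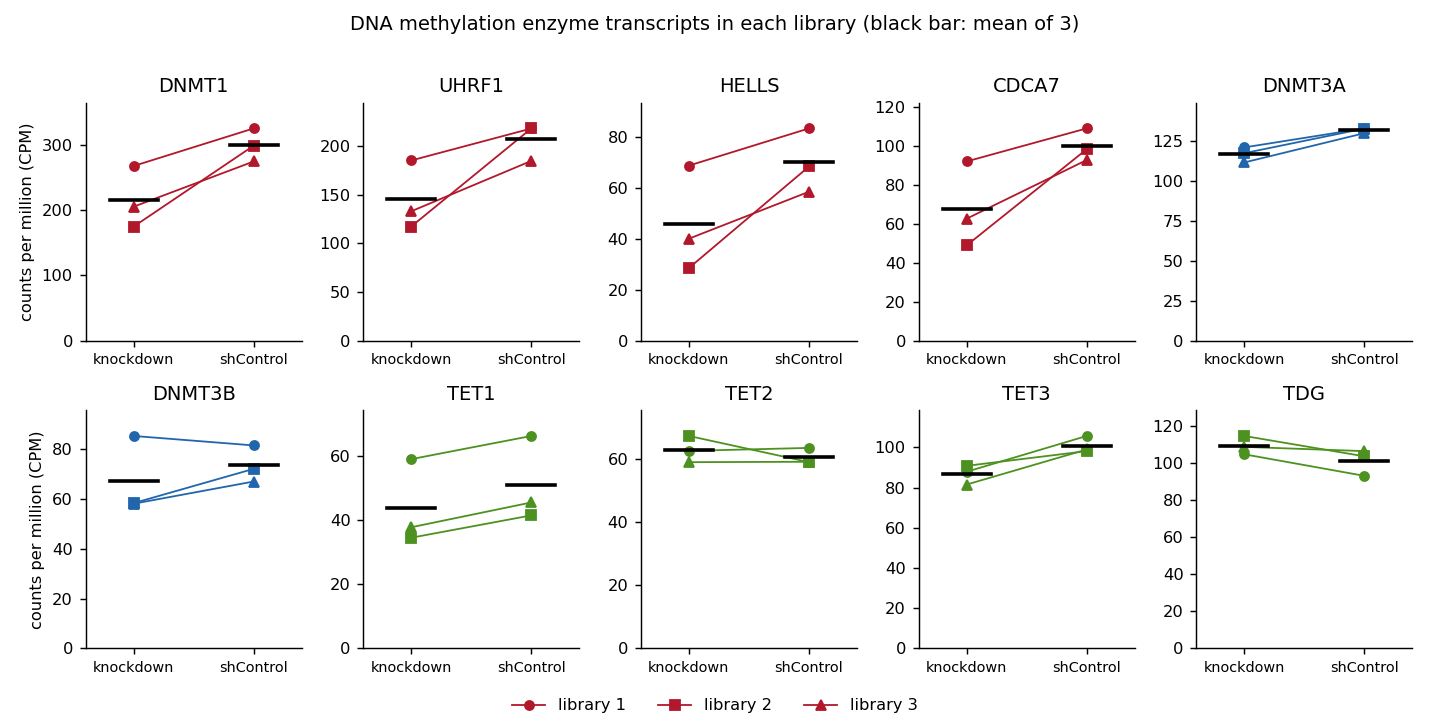
CPM of each of the 10 genes in every library, with knockdown left and shControl right, lines joining libraries of the same number and a black bar at the mean of 3. The red panels (replication-coupled) slope upward to shControl in all 3 pairs. The blue (de novo) and green (oxidation and removal) panels are flatter in pairs 2 and 3. In pair 1 the log2 difference of TET3 (-0.26) was larger than those of UHRF1 (-0.24) and CDCA7 (-0.24).

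The de novo methyltransferase genes had smaller fitted changes, and neither passed the test. DNMT3A was at 120.8, 117.2 and 111.4 CPM in knockdown and 132.7, 132.6 and 129.7 CPM in shControl libraries. The groups did not overlap, but the step was small, at 88.4% of the shControl mean. The log2 fold change of DNMT3A was -0.18 (SE 0.0633, edgeR adjusted p 0.104). DNMT3B stood at 85.4, 58.4 and 58.2 CPM in knockdown and 81.6, 72.2 and 67.1 CPM in shControl libraries. Its 2 highest values are those of libraries numbered 1, one from each group, and the pairs differed in sign (0.07, -0.30 and -0.21). The log2 fold change of DNMT3B was -0.15 (SE 0.0877, edgeR adjusted p 0.292), and it was -0.25 without pair 1 and -0.08 without pair 2. DNMT3L, the catalytically inactive partner of the de novo enzymes, was listed at 0 counts in all 6 libraries.

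Among the TET genes, TET3 was at 87.9, 90.8 and 81.5 CPM in knockdown and 105.7, 98.2 and 99.0 CPM in shControl libraries. All 3 knockdown values were lower than any control value, and the log2 fold change was -0.22 (SE 0.0694, edgeR adjusted p 0.0788). TET1 stood at 58.9, 34.5 and 37.7 CPM in knockdown and 66.2, 41.4 and 45.5 CPM in shControl libraries. Library number set the TET1 level more than the group did, with both libraries numbered 1 above the other 4. Within pairs it was lower by a similar step each time (-0.17, -0.26 and -0.27), for a fitted log2 fold change of -0.23 (SE 0.0810, edgeR adjusted p 0.0997). TET2 was at 62.5, 67.2 and 58.9 CPM in knockdown and 63.4, 58.9 and 59.0 CPM in shControl libraries, overlapping throughout, with a log2 fold change of 0.06 (SE 0.0799). TDG, the glycosylase, was at 104.8, 114.7 and 108.8 CPM in knockdown and 93.2, 103.7 and 106.5 CPM in shControl libraries. It was higher in knockdown within each pair (0.17, 0.15 and 0.03), and its log2 fold change was 0.11 (SE 0.0668, edgeR adjusted p 0.299).

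The groups did not overlap in 4 of the 10 genes (DNMT1, CDCA7, DNMT3A and TET3), against 20.5% of all genes tested. Of the 6 de novo and removal genes, 3 had an unadjusted p under 0.05 in the paired edgeR fit (DNMT3A, TET1 and TET3, all lower), against 28.7% of all genes tested, and paired DESeq2 and limma voom called none of the 6. Without pair 2 the paired edgeR fit called DNMT3A and TET3 too (adjusted p 0.0203 and 0.000758), and TET3 was called once a trend with GC content and length was taken out (0.0352). A p that misses the threshold therefore does not show that these genes were unchanged.

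**Figure D3:**
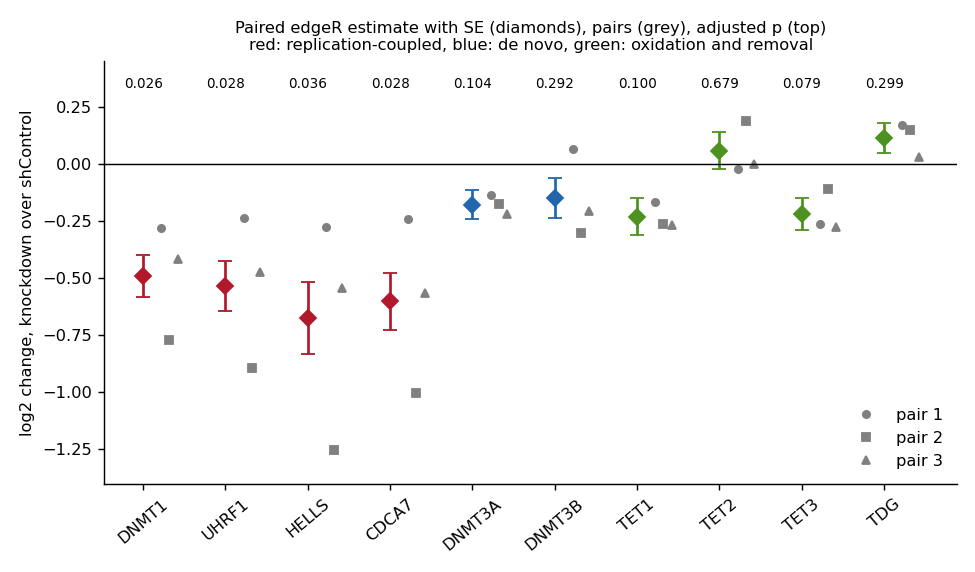
Paired edgeR log2 change (knockdown over shControl) of each gene with its SE (diamonds), the log2 CPM difference within each pair (grey) and the adjusted p (top). The 4 replication-coupled genes lie between -0.49 and -0.68, and the other 6 between -0.23 and 0.11.

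Set against each other pair by pair, the median of the replication-coupled genes was lower than that of the de novo and removal genes in all 3 pairs. Single genes interleaved in pair 1, where TET3 (-0.26) lay below UHRF1 (-0.24) and CDCA7 (-0.24). Their median log2 difference was -0.26, -0.95 and -0.51 in pairs 1, 2 and 3. For the 6 de novo and removal genes it was -0.08, -0.14 and -0.21. The gap between the medians was thus -0.18, -0.80 and -0.30, or -0.43 ± 0.331 (mean ± SD, n = 3 pairs), given without a test because the genes were chosen as a list. The median over all 12937 genes tested lay within 0.01 of 0 in each pair, and moved only to -0.02 with scaling by total count. BMI1 itself differed by -1.09, -2.05 and -1.73 in the same pairs, so both were smallest in pair 1 and largest in pair 2. The medians of G1/S and S phase genes (-0.23, -1.02 and -0.52) and of G2/M genes (-0.26, -1.14 and -0.52) had the same order. Knockdown library 2 also lay apart on the first principal component. Whether the order is related to the BMI1 level was not tested.

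The same shift appears as a change in composition within each library. The 4 replication-coupled genes summed to 613.1, 369.4 and 440.9 CPM in knockdown and 735.2, 683.2 and 610.3 CPM in shControl libraries. The removal genes summed to 314.1, 307.2 and 286.9 CPM in knockdown and 328.4, 302.2 and 309.9 CPM in shControl libraries. The ratio of the first sum to the second was 1.95, 1.20 and 1.54 in knockdown against 2.24, 2.26 and 1.97 in shControl cells. These ratios did not overlap, but knockdown library 1 (1.95) nearly met shControl library 3 (1.97). The replication-coupled sums themselves overlapped through the same 2 libraries (613.1 and 610.3 CPM). DNMT1 counts were 2.22, 1.49 and 1.84 times those of DNMT3A in knockdown and 2.45, 2.25 and 2.12 times in shControl libraries, lower within each pair but overlapping between groups through knockdown library 1. The ratio of UHRF1 to DNMT1 counts stayed in 1 narrow range, at 0.691, 0.671 and 0.647 in knockdown and 0.670, 0.729 and 0.672 in shControl libraries.

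Levels of different genes were compared per kilobase of the transcript with the longest coding sequence, as CPM per kilobase. In knockdown cells the order was DNMT1 (41.5 ± 9.09), UHRF1 (36.6 ± 8.94), TDG (33.7 ± 1.54), CDCA7 (24.3 ± 7.89), DNMT3B (15.5 ± 3.61), HELLS (14.6 ± 6.60), DNMT3A (12.3 ± 0.499), TET3 (7.62 ± 0.418), TET2 (6.18 ± 0.409) and TET1 (4.71 ± 1.43; mean ± SD, n = 3). In shControl cells DNMT1 (57.5 ± 4.87) and UHRF1 (52.1 ± 4.84) led, before CDCA7 (35.9 ± 2.95), TDG (31.1 ± 2.16), HELLS (22.4 ± 3.99) and DNMT3B (17.0 ± 1.70). DNMT3A (13.9 ± 0.179), TET3 (8.86 ± 0.362), TET2 (5.94 ± 0.253) and TET1 (5.49 ± 1.43) followed. Among the knockdown libraries every pair of neighbours in the order overlapped except DNMT3A and TET3, and TET3 and TET2. Among the shControl libraries the neighbours DNMT1 and UHRF1, HELLS and DNMT3B, and TET2 and TET1 overlapped. TDG stood above CDCA7 in the knockdown order and below it in the shControl order, and DNMT3B and HELLS changed places likewise. These positions rest on the length used: per kilobase of all annotated exons HELLS was at 6.90 in shControl cells, below TET3 at 8.23, and UHRF1 at 40.2 stood above DNMT1 at 30.6.

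The replication-coupled genes were placed beside the genes of the division cycle, since DNMT1, UHRF1, HELLS and CDCA7 are known to be transcribed mainly in late G1 and S phase. Of 42 genes of G1/S and S phase, 34 fell and none rose in the paired edgeR fit, against 5.39% and 4.63% of all genes. The list median log2 fold change was -0.57, the same to 2 decimals as the -0.57 of the 4 genes. PCNA, the replication clamp, was not on this list (log2 fold change -0.19, edgeR adjusted p 0.162). Of 31 G2/M genes 29 fell and none rose (median -0.65), against the same shares of all genes. The fit without the block called none of either list. The S phase median was -0.23, -1.02 and -0.52 in the 3 pairs, so the 4 genes differed from it by -0.03, 0.07 and 0.01. Of the 42 S phase genes 33 were lower than DNMT1 in fitted change, 27 lower than UHRF1, 18 lower than CDCA7 and 12 lower than HELLS. All 4 thus lay within the range of the S phase list. How far both falls share a source was not tested.

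**Figure D4:**
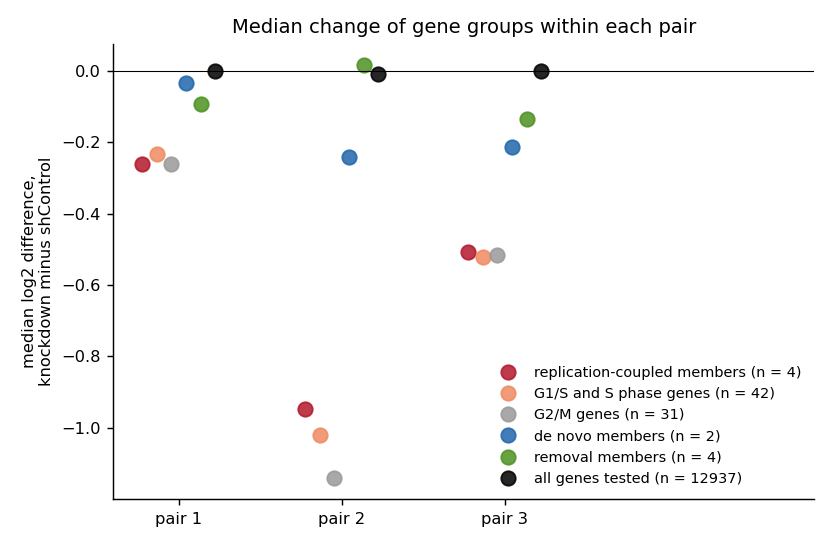
Median log2 CPM difference (knockdown minus shControl) of 6 gene groups within each of the 3 pairs. In each pair the replication-coupled genes lie beside the S phase and G2/M genes, and the de novo genes, the removal genes and all genes tested lie nearer 0.

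Across the 6 libraries the 4 replication-coupled genes ran nearly in parallel, with correlations of log2 CPM between 0.969 and 0.994 over their 6 pairings. Those among the other 6 genes ranged from -0.854 to 0.939 (median 0.068), and those between the 4 and the other 6 from -0.877 to 0.886 (median 0.719). These are descriptions over 6 libraries that share group, number and depth effects. Among 10428 other genes with a mean of at least 10 CPM, the 5 closest to the mean pattern of the 4 were MCM2 (Pearson r 0.999), PRIM1, BLM, CHEK1 and WDR76 (all at least 0.998). MCM2 is a subunit of the replicative helicase and PRIM1 of primase, BLM is a DNA helicase and CHEK1 a checkpoint kinase. All 5 fell in the paired edgeR fit, from -0.38 (CHEK1) to -0.80 (PRIM1). They were picked for likeness to genes that fell in these same libraries, so this follows largely from the choice.

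The remaining members had other nearest neighbours. DNMT3B was closest to VPS45 (r 0.999) and PCNA (r 0.996), the replication clamp, which was at 187.2 ± 43.6 CPM in knockdown and 210.5 ± 21.2 CPM in shControl libraries (mean ± SD, n = 3 each; edgeR adjusted p 0.162). DNMT3A was closest to DTWD2 (0.991) and C1orf109 (0.990), and TET1 to CRKL (0.997) and RPL7L1 (0.995). TET2 was closest to ZFYVE9 (0.998) and KDM4C (0.994), TET3 to ENDOG (0.991) and PCLO (0.981), and TDG to SETD4 (0.996) and RICTOR (0.993). None of these 12 genes passed the paired edgeR test, but they were picked for likeness to members that did not pass.

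Enzymes that supply the methyl group were lower in knockdown cells. In the list of the S-adenosylmethionine and folate cycle 9 of 15 tested genes fell and none rose in the paired edgeR fit. Of all genes tested 5.39% were called lower and 4.63% higher. The list median log2 fold change was -0.42 (pair medians -0.22, -0.75 and -0.30), and the fit without the block called none of the list. MTR, methionine synthase, was at 56.0 CPM in knockdown and 92.0 CPM in shControl cells on average, a log2 fold change of -0.72 (SE 0.0856, edgeR adjusted p 0.0158). MAT2B, the regulatory subunit of methionine adenosyltransferase, fell by 0.61 and AHCYL2, a relative of the enzyme that clears S-adenosylhomocysteine, by 0.65 on the log2 scale. SHMT1 (-0.66), MTHFD1 (-0.46), MTHFD2 (-0.42) and TYMS (-0.32), of the folate cycle, fell too, as did CBS (-0.53), which draws homocysteine out of the cycle. TYMS is also on the S phase list. The catalytic subunit gene MAT2A was at 233.9 ± 18.1 CPM in knockdown and 263.9 ± 10.1 CPM in shControl libraries (edgeR adjusted p 0.130, n = 3 each); it was named after its value was seen.

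The list of base excision repair holds genes that act after TDG and also glycosylases other than TDG. Of its 19 tested genes 5 fell and none rose in the paired edgeR fit (median -0.19), against 5.39% and 4.63% of all genes. The fit without the block called none. APEX1, POLB, XRCC1 and LIG3 were not among the 5. LIG1, the replicative DNA ligase, fell by 0.39, the flap endonuclease gene FEN1 by 0.50, the poly(ADP-ribose) polymerase gene PARP1 by 0.51 and the glycosylase gene NEIL3 by 0.81 on the log2 scale. MUTYH (-0.36), a glycosylase gene, was the other one that fell. FEN1 and LIG1 also join Okazaki fragments in replication. With paired DESeq2 3 of the 19 were called.

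Few other partners of the methylation enzymes passed the test. Of 10 tested cofactors of maintenance and methyltransferases none passed the paired edgeR test (2 had an unadjusted p under 0.05, against the 28.7% of all genes, and DESeq2 and limma voom called none), among them EHMT2 (-0.15), PCNA (-0.19), KAT5 (-0.19) and EHMT1 (-0.14). Of 15 TET partners and genes of cofactor supply none passed (5 had an unadjusted p under 0.05, again against 28.7% of all genes, and the other tools called none). OGDH (-0.27), CXXC4 (0.62) and QSER1 (0.20) had the smallest p among them. Of 10 genes for histone marks that guide methyltransferases 1 fell and none rose, against 5.39% and 4.63% of all genes. It was WHSC1 (also named NSD2), which methylates lysine 36 of histone H3 and fell by 0.34 (SE 0.0763, edgeR adjusted p 0.0328). KDM2B (-0.16), NSD1 (0.14) and SETD2 (0.12) did not pass.

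Readers of methylated DNA were the one related list with genes that rose. Of 10 tested, 2 (MBD2 and ZBTB4) rose in the paired edgeR fit and none fell (median 0.11), against 4.63% and 5.39% of all genes. The fit without the block called none of the list. MBD2, a methyl-CpG binding protein of the NuRD complex, averaged 55.4 CPM in knockdown and 42.6 CPM in shControl cells, a log2 fold change of 0.38 (SE 0.0786, edgeR adjusted p 0.0282). Its pairs were alike (0.35, 0.38 and 0.39). ZBTB4, a zinc finger reader, changed by 0.30 with an adjusted p of 0.0498, at the edge of the threshold. Paired DESeq2 called neither, and with pair 3 left out edgeR called neither. EGR1 (-0.31) and MBD4 (-0.19) did not pass.

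**Figure D5:**
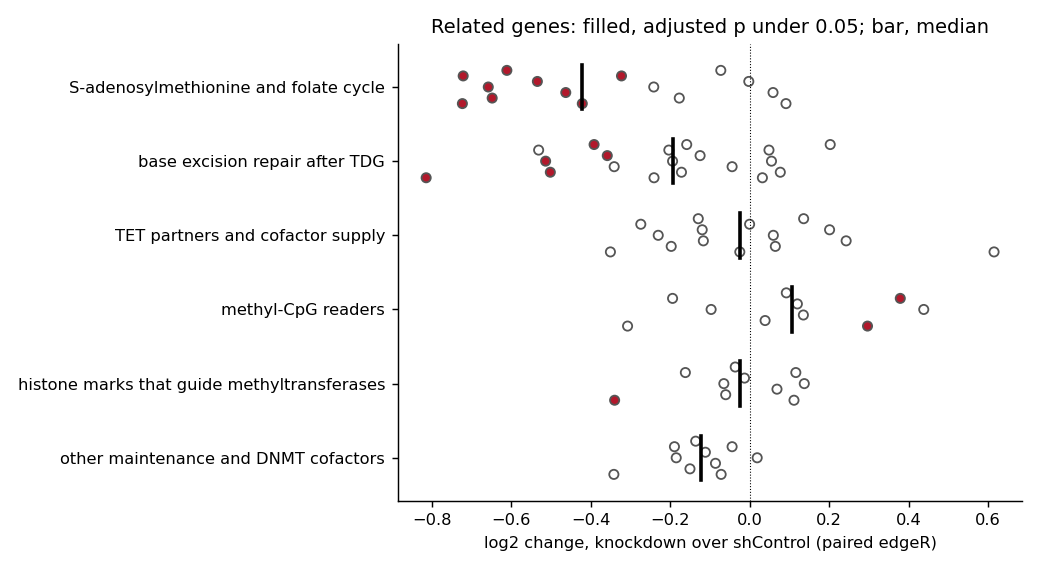
Paired edgeR log2 change (knockdown over shControl) of the tested genes of 6 related lists; filled points have an adjusted p under 0.05, black bars are list medians and vertical scatter has no meaning. Filled points lie left of 0 for the S-adenosylmethionine and folate cycle (9), base excision repair (5) and histone marks (1), and right of 0 for methyl-CpG readers (2). Of all genes tested 5.39% were called lower and 4.63% higher.

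Germline genes that DNA methylation is known to keep silent in somatic cells stayed near 0. All 25 were below the filter on low counts, and 14 of them had 0 counts in all 6 libraries. The 25 summed to between 2.62 and 4.46 CPM in knockdown and between 3.49 and 5.92 CPM in shControl libraries. DAZL, SYCP3 and SYCP1 were among those at 0, and MAEL had 13 counts over the knockdown libraries and 19 over the shControl libraries. A difference at this level was not detectable at this depth.

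The neural stem cell label was checked against its markers. SOX2 was at 325.4 ± 54.2 CPM in knockdown and 344.6 ± 34.3 CPM in shControl libraries, and NES at 868.8 ± 253.2 CPM in knockdown and 1032 ± 50.5 CPM in shControl libraries (mean ± SD, n = 3 each). HES5 was at 0 counts in all libraries. Of the 15 neural stem cell markers tested 1 fell and 1 rose in the paired edgeR fit, against 5.39% and 4.63% of all genes. PLAGL1 (-0.26, adjusted p 0.038) was the lower one and MMRN1 (0.30, adjusted p 0.0423) the higher one. SOX9 (0.22, adjusted p 0.089) and PROM1 (-0.38, adjusted p 0.0765) did not pass. Of other cell types, 8 of 12 neuronal, 5 of 8 astroglial, 5 of 8 oligodendrocyte lineage and 3 of 8 pluripotency markers were high enough to be tested, with the defining neuronal markers RBFOX3 and ELAVL4, SOX10, NANOG, TDGF1, ZFP42 and L1TD1 at 0 and GFAP at 1 count in all. Other markers on these lists were expressed. Of the pluripotency list, LIN28A averaged 317.5 CPM in knockdown and 267.7 CPM in shControl, DPPA4 143.8 CPM in knockdown and 143.0 CPM in shControl, and POU5F1, which has near-identical copies, 66.3 CPM in knockdown and 76.1 CPM in shControl libraries. Astroglial markers summed to between 637.6 and 691.1 CPM in knockdown and between 565.3 and 623.7 CPM in shControl libraries. These sums did not overlap, and 20.5% of single genes tested did not either. Of the 5 tested, 2 rose in the paired edgeR fit and none fell, against 4.63% and 5.39% of all genes. They were GJA1 (0.26, adjusted p 0.0398), which alone averaged 317.3 CPM in knockdown and 264.4 CPM in shControl libraries, and SPARCL1 (0.52, adjusted p 0.0467). S100B averaged 95.1 CPM in knockdown and 81.1 CPM in shControl libraries (edgeR adjusted p 0.0692). AQP4 changed by -0.24 (edgeR adjusted p 0.660). Oligodendrocyte lineage markers summed to between 401 and 420.4 CPM in knockdown and between 394 and 425.5 CPM in shControl libraries. All 11 mesenchymal markers were tested. They summed to between 3964 and 4703 CPM in knockdown and between 3394 and 3710 CPM in shControl libraries. In the paired edgeR fit 3 of them (POSTN, SPARC and COL3A1) were higher and none lower, against 4.63% and 5.39% of all genes. Neuronal markers summed to between 918.7 and 1181 CPM in knockdown and between 1126 and 1283 CPM in shControl libraries, which overlap. Of the 8 tested, 2 were lower in the paired edgeR fit and none higher, against 5.39% and 4.63% of all genes. They were ELAVL3 (-0.96, adjusted p 0.0256) and NEFM (-0.89, adjusted p 0.0305). SYT1 (0.29, adjusted p 0.0608) and NEFL (-0.35, adjusted p 0.0796) did not pass. The part of these cell types in the changes of the methylation genes was not tested.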

How the data were processed

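RNA libraries of 6 AF22 samples were made with a directional kit, per the labels' protocols. The authors deposited 1 table of whole-number read counts per gene symbol for each library, not normalized, judged from the values. Per the submitters' processing notes, Trim Galore 0.6.6, STAR 2.7.10a, bedtools and hg38 were used. Which program counted the reads, on which annotation and strand, is not given in the sources used here.

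The fits used edgeR 4.0.16 (R 4.3.3) with filterByExpr defaults, TMM factors and the quasi-likelihood test across all 12937 genes tested, with library number as a block and Benjamini-Hochberg adjustment at 0.05. The SE is the log2 fold change divided by the square root of F. CPM values use TMM-scaled totals, and log2 CPM a prior count of 2. The code was tested on simulated data. Replicates were compared, and within each group all differed by more than sampling noise (chi-square per gene at least 3.19).

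The block follows the numbers in the sample titles. Same-numbered libraries deviated together from their group means, with correlations of 0.563, 0.467 and 0.535 across genes, against -0.107 or lower for unlike numbers. Deviations from a group mean cancel out within the group, so the negative values follow in part from the positive ones. Nothing in the labels says what a number stands for. The members, the lists, the paired fit and the alternatives were chosen with earlier results of these data known. Genes named are the members, the targeted locus, up to 4 genes per list of smallest p, and the genes most like the members (5 for the replication-coupled mean and 2 for each other member, by Pearson r); other list genes past the threshold were named after their values were seen. Values of 2 list genes are not reported here. Of 254 list genes all were found, 2 under an older symbol. Lengths come from GENCODE 29 and promoters from RefSeq (GRCh38.p14), found for all 10 members.

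Alternatives were the fit without the block, leaving out each pair or library, RLE factors, total counts, 2 other filters, DESeq2 1.42.0, limma voom 3.58.1, an adjusted p of 0.01, thinning, and removal of a GC content and length trend (values for 98.1% of tested genes).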

Additional observations from a re-analysis of the deposited data

How the results depend on the processing

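The 4 calls among the members rest on the pairing. Without the replicate block edgeR called 0 of 12937 genes and 0 members, and leaving out 1 library in that fit gave 0 to 665 genes and 0 to 4 members, the highest of both without knockdown library 1. With the block, leaving out a pair gave 912 to 2296 genes and 4 to 6 members, the highest of both without pair 2. The number of genes called was 2171 with no filter, 590 with DESeq2 and 12 at an adjusted p of 0.01, at which no member (0) was called. RLE factors, total counts, both filters, thinning, DESeq2, limma voom and the GC and length trend gave 4 or 5 members. Total counts gave 789 lower and 494 higher genes, and the trend gave 762 lower and 872 higher, in place of 697 and 599.

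The gap between the medians of the replication-coupled and the other members ran from -0.55 to -0.24 over the pairs left out and was -0.38 to -0.43 under the other settings run. Over the pairs left out the log2 fold change of TET2 ran from -0.013 without pair 2 to 0.096 without pair 1, and it was 0.103 at most over all alternatives run. Of 190 values of single members under an alternative, 158 kept their direction and side of the threshold, 28 were no longer past it, 3 were newly past it and 1 changed sign.

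For the related lists, a check added after seeing the data, the fit without the block called 0 genes in each. Leaving out 1 library in it gave 0 to 6 for the methyl supply list, 0 to 4 for base excision repair and 0 to 1 for the readers, and leaving out a pair in the paired fit gave 8 to 9, 4 to 6 and 0 to 2. Base excision repair had 3 lower genes with DESeq2 and 3 with thinning. The readers had 1 higher gene with total counts, 1 with at least 1 CPM in 3 libraries, 1 with thinning and 0 with DESeq2. At an adjusted p of 0.01 all 3 lists had 0. Depth limits statements on genes under the filter, such as the germline list.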

Other observations

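The E2F-type letters found in the promoters of the replication-coupled genes were also counted over all genes tested that have a RefSeq window. Of 556 such genes called lower in knockdown by the paired edgeR fit, 92 (16.5%) held a match in at least 1 window. Of 468 called higher 11 (2.35%) did, and of 8717 not called 556 (6.38%). Of 35 S phase genes with a window 19 (54.3%) held a match, and of 11 genes of the S-adenosylmethionine and folate cycle 3 (27.3%). These shares describe letters in a window and were not tested.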
